A study of Mus musculus with 2 samples.

Results

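Quiescent-type endothelial cells are the cells of this spinal cord sort that carried blood vessel transcripts, lay outside the EpA population and had few UMIs of 5 angiogenic genes. A cell was taken if it was in the authors' table of kept cells but not in their table of EpA cells, a subpopulation of ependymal cells. Its raw sum of unique molecular identifiers (UMIs, 1 per captured RNA molecule) had to be at least 5 over Cldn5, Flt1, Kdr and Pecam1. The sum over C1qa, C1qb and C1qc had to be below 10, and so had the sum over Mest, Igfbp3, Plvap, Aplnr and Col15a1. The rule found 90 cells among 2442 deposited barcodes, of which 1939 were kept, and 380 kept cells lay outside EpA. The uninjured library held 47 of them and the injured library 43. The members were thus chosen by measured UMI sums of these 12 genes and by their place in the authors' tables.

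Each condition was 1 library. Both came from C57BL/6J mice of at least 12 weeks that carried Troy-CreERT2+/- and Rosa26-tdTomato, so that both conditions share the driver allele and the reporter. The injured library was taken 3 days after a dorsal funiculus incision, and the uninjured library came from matching 5 mm segments of intact cord. Cells positive for tdTomato were sorted by FACS and sequenced from the 3′ end on the 10x Genomics platform. Troy is another name of Tnfrsf19, and the Cre of the sorted cells is driven from this gene. How many mice each library pools is not stated in the labels. The labels name the sorted cells as ependymal, and the cells described here were selected on endothelial transcripts. With 1 library per condition no test between conditions was possible, and no difference below has a replicate check.

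Endothelial cells line the vessels of the spinal cord. Those of the resting cord form the blood–spinal cord barrier: claudins and other junction proteins seal the gaps between cells, carriers move nutrients and hormones across, and canonical Wnt signalling keeps this programme on. After an incision some endothelial cells leave this resting state, degrade and rebuild their basement membrane, and sprout. Venules are the segment where leukocytes adhere and cross.

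The 5 marker genes were high in the uninjured cells and nearly absent from EpA cells of the same library. Levels are UMIs of the summed cells scaled to a total of 1000000 (CPM). Cldn5, the main claudin of brain endothelium, stood at 5581 CPM (95% Poisson interval 5378 to 5790), against 0.65 CPM in uninjured EpA cells. Slco1a4, an organic anion carrier of the barrier, stood at 1157 CPM, Slc38a5, a glutamine carrier, at 652 CPM, Ptprb, a receptor phosphatase of endothelium, at 1544 CPM, and Ly6c1 at 1326 CPM. In uninjured EpA cells these 4 genes lay between 0 and 0.78 CPM. In GRCm38 (mm10), Cldn5 is the protein-coding gene at chr16:18776847-18778262 on the plus strand and Slco1a4 the one at chr6:141805440-141856199 on the minus strand. At 1000 UMIs per cell, a Cldn5 UMI was seen in 47 of 47 uninjured members and in 0 of 551 uninjured EpA cells, whose median depths were 9069 and 11387 UMIs before thinning. Cldn5 is a gene of the selection rule, so its presence in the members is a description, whereas Slco1a4, Slc38a5, Ptprb and Ly6c1 were not used by the rule.

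Transcripts known from different vessel segments were found in these cells. At 1000 UMIs per cell, 37 of 47 uninjured members (78.7%, exact binomial interval 64.3 to 89.3%) had a UMI of Slc38a5, Vwf or Nr2f2, genes known from venules. Of the uninjured members 2 of 47 had a UMI of the arterial genes Gkn3, Sema3g or Bmx, and 6 of 47 one of the capillary genes Mfsd2a or Slc16a1. Among injured members with at least 1% endothelial UMIs, a share explained next, the venous set was seen in 24 of 35 cells (68.6%, 50.7 to 83.1%), the arterial set in 1 and the capillary set in 6. The intervals of both libraries overlap. Before thinning the venous set was seen in 85.1% of the uninjured and 88.9% of the injured cells, the capillary set in 40.4% and 52.8%, the arterial set in 19.1% and 19.4%, and both the arterial and the venous set in 17.0% and 16.7%. The sets differ in abundance, with Vwf at 1579 CPM but Mfsd2a at 35.3 CPM in the uninjured cells, so these shares do not measure which segment the cells come from.

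Not all cells that met the rule had a high share of endothelial UMIs. In 7 of the 43 injured cells the 36 endothelial identity genes held between 0.0426% and 0.989% of the non-haemoglobin UMIs. In the other 36 injured cells the share was 1.57 to 5.34% (median 2.92%) and in the 47 uninjured cells 1.83 to 5.46% (median 2.84%). Of these 7 cells 4 had more than 40000 UMIs and the other 3 had 4245, 12070 and 14743, and together the 7 held 56.9% of all UMIs of the injured members. Of the 7, 2 with 98676 and 113104 UMIs had 1120 and 1215 UMIs of smooth muscle genes and 844 and 586 of fibroblast genes, with 6 and 8 UMIs of the 4 rule genes. A further 2, with 91914 and 137050 UMIs, had 476 and 489 UMIs of ependymal genes and 158 and 345 of the rule genes. The cell of 14743 UMIs had 176 ependymal UMIs. The cells of 4245 and 12070 UMIs had 1 and 2, with 0 UMIs of smooth muscle and fibroblast genes. A share below 1% therefore does not by itself mark a cell as another type. Summed values over all 43 injured cells mix these profiles, and values are therefore also given for the 36 cells with at least 1%. This limit of 1% was chosen after the data were seen.

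**Figure D1:**
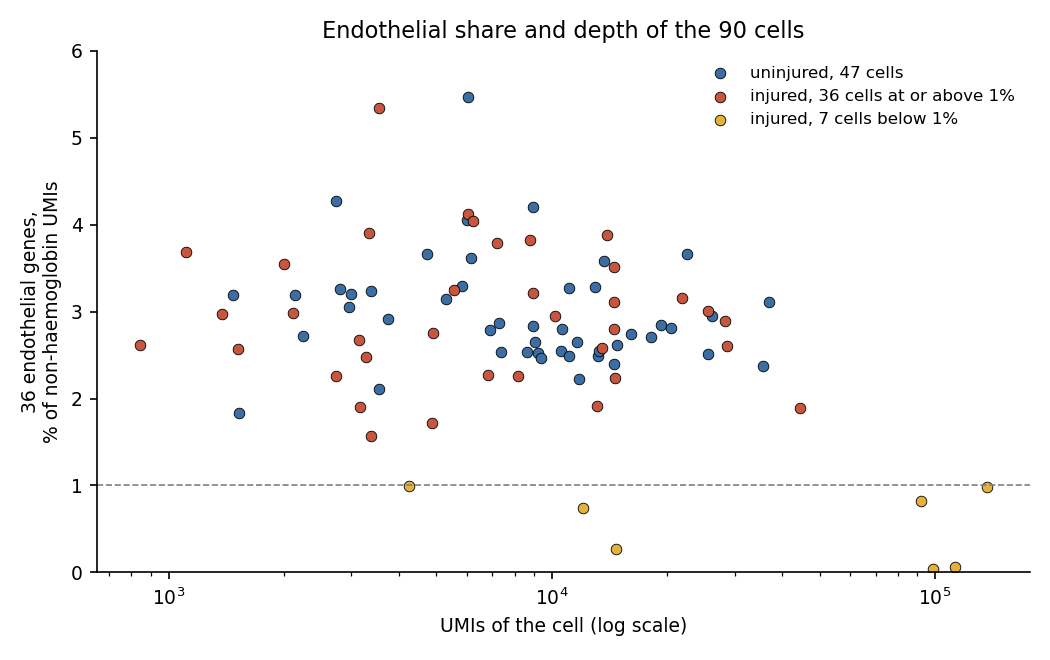
Each point is 1 of the 90 cells, with its UMIs on a log axis and the share of its non-haemoglobin UMIs held by 36 endothelial identity genes on the linear axis, and the dashed line marks 1%. The 7 injured cells below the line include the 4 deepest of all cells, and no uninjured cell lies below it.

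The 36 injured cells were shallower than the uninjured cells, with a median of 6530 UMIs (840 to 44381) against 9069 (1472 to 36814). Their totals were 356731 and 509210 UMIs. The 43 injured cells had 828533 UMIs in all. Mitochondrially encoded UMIs made up a median of 4.76% in the uninjured and 5.84% in the 36 injured cells. No barcode of a member occurred in both libraries, although 18 barcodes did over all cells. Haemoglobin was carried by 1 uninjured cell, in which 13934 of the 13936 haemoglobin UMIs of the uninjured members lay and made up 68.2% of that cell's UMIs. The injured members had 0 haemoglobin UMIs. The haemoglobin genes were treated as likely carry-over from blood and left out of the named genes.

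Markers of other cell types were low in the cells with at least 1%. Fibroblast genes summed to 3.93 CPM in the uninjured and 5.61 CPM in the 36 injured cells, with Col1a1, Col1a2 and Col3a1 at 0 in both. Smooth muscle genes summed to 96.2 and 22.4 CPM, with Acta2 and Tagln at 0, and pericyte genes to 130 and 58.9 CPM. In the uninjured cells 62.1% of the UMIs of the pericyte gene Rgs5 came from 1 cell. Astrocyte genes summed to 80.5 and 58.9 CPM, neuronal genes to 132 and 92.5 CPM, oligodendrocyte lineage genes to 47.1 and 67.3 CPM, and leukocyte genes other than microglial ones to 21.6 and 0 CPM. The 3 C1q genes, which the rule kept low, summed to 3.93 and 16.8 CPM. The microglia and macrophage list summed to 2655 and 659 CPM, of which Apoe alone was 2582 and 580 CPM. The ependymal list summed to 2728 and 1267 CPM, of which Pltp, a lipid transfer protein that brain endothelium also makes, was 2286 and 1228 CPM. Over all 43 injured cells the smooth muscle list stood at 2910 CPM and the fibroblast list at 1732 CPM.

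The share of quiescent-type cells among endothelial cells outside EpA differed between raw and thinned counts. By the raw rule it was 47 of 47 in the uninjured library (100%, exact interval 92.5 to 100%) and 43 of 105 in the injured library (41.0%, 31.5 to 51.0%). The other 62 injured cells met the same endothelial limit but had at least 10 UMIs of the 5 angiogenic genes, and are called angiogenic-type. Their median depth was 51949.5 UMIs. With every cell thinned to 2000 UMIs and the same limits, the share was 44 of 44 in the uninjured and 48 of 49 in the injured library (98.0%, 89.1 to 99.9%). Thinning left out 35 uninjured and 19 injured cells outside EpA with fewer than 2000 UMIs. With the limit of 5 endothelial UMIs kept, the injured endothelial cells fell from 105 to 49. The limit of 10 angiogenic UMIs was also kept, and at this depth it asks for a higher rate than most angiogenic-type cells had. The thinned share therefore does not measure the split between the groups.

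Per 10000 UMIs the median of the 5 angiogenic genes was 0 in the members of each library. In the angiogenic-type cells the median was 21.2 and the lowest cell had 3.76. Of the 36 injured members 3 reached this lowest value, at 4.82, 12.7 and 14.2 per 10000 in cells of 6229, 3151 and 2112 UMIs, and 2 uninjured members did. Just inside the limits lay 1 uninjured and 11 injured members with 5 to 9 UMIs of the endothelial rule genes, and 1 uninjured and 5 injured members with 5 to 9 of the angiogenic genes. Just outside lay 4 uninjured and 0 injured cells with 3 or 4 endothelial UMIs, and 2 injured cells with 10 to 19 angiogenic UMIs.

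The injured library was then compared with the uninjured one over all genes. A gene was called by size where the summed level differed at least 2-fold, reached 50 CPM in either library and had at least 20 UMIs over both. Over all members 473 of 3688 genes (12.8%) were called higher in the injured cells and 494 (13.4%) lower. With the 36 injured cells of at least 1%, 230 of 3613 genes (6.37%) were higher and 189 (5.23%) lower, and 115 and 146 genes were shared with the calls over all members. Leaving out the deepest of the 36 cells as well gave 200 (5.61%) and 170 (4.77%). Without scaling to depth, as UMIs per cell, 93.1% of the calls over all members were higher, against 48.9% of the calls with scaling. The median log2 ratio over all genes was 0.013 for all members and 0.089 for the 36 cells. From here on, values for the injured library are those of the 36 cells unless all 43 are named. The intervals cover counting error only, and the cells differed by more than that.

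Endothelial identity genes had similar summed levels in both libraries once the low-endothelial cells were set aside, a choice that used these same genes. The 36 identity genes summed to 28181 CPM in the uninjured and 28229 CPM in the injured cells. Their median log2 ratio was 0.081, with 0 genes called higher and 1 lower, against 6.37% and 5.23% over all genes. Over all 43 injured cells the median was −0.91 and 15 genes were lower, against 13.4% over all genes. Cldn5 per cell ranged from 654 to 15267 CPM (median 5844) in the uninjured cells and from 0 to 14403 CPM (median 4551) in the injured cells, so the libraries overlapped almost fully. The summed level of Cldn5 was 5581 and 4524 CPM, a log2 ratio of −0.30. The VEGF receptor Flt1 stood at 1426 and 1329 CPM, Kdr at 387 and 322 CPM, Vwf, the clotting factor carrier, at 1579 and 1657 CPM, and Ly6c1 at 1326 and 1620 CPM. Cldn5, Flt1, Kdr and Pecam1 chose the members, and their levels are a description. The 1 identity gene called lower was Clec14a, a C-type lectin of endothelium, at 1088 and 392 CPM, 2.77-fold lower (interval 2.30 to 3.36). CD34, an adhesion sialomucin (gene Cd34), stood at 361 and 664 CPM, below the 2-fold limit.

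Several basement membrane genes were higher in the injured cells. Of 22 measured genes of the list, 9 were called higher and 1 lower, against 6.37% and 5.23% over all genes. The median log2 ratio was 0.74, against 0.089 over all genes. Over all 43 injured cells 8 of 20 were higher and 0 lower, against 12.8% and 13.4% over all genes, with a median of 0.70. Col4a1 and Col4a2 encode the chains of the type IV collagen network that vessels rest on. Col4a1 stood at 122 CPM (93.4 to 156) in the uninjured and 746 CPM (659 to 841) in the injured cells, 6.12-fold higher (4.63 to 8.21). Per cell the median went from 85.9 CPM in the uninjured to 614 CPM in the injured cells, and the highest cells had 858 and 2700 CPM. Col4a2 stood at 86.4 and 547 CPM, 6.33-fold higher (4.54 to 8.99), with a UMI in 20 of 47 and 27 of 36 cells. The genes lie head to head on chromosome 8 of mm10, Col4a1 at chr8:11198423-11312826 on the minus and Col4a2 at chr8:11312805-11449287 on the plus strand, so that their annotated starts are 21 bases apart and the gene bodies overlap. The overlap lies at the starts, whereas the libraries were sequenced from the 3′ end, and a split of reads there was not tested.

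Sparc encodes a matricellular protein that binds collagen. It stood at 670 CPM (600 to 745) in the uninjured and 2963 CPM (2787 to 3147) in the injured cells, 4.42-fold higher (3.91 to 5.01). Its per-cell median went from 561 to 2043 CPM. All 47 uninjured cells had a Sparc UMI, as did 33 of 36 injured cells. Hspg2, which encodes perlecan, stood at 49.1 and 199 CPM, 4.05-fold higher (2.54 to 6.68). At equal depth of 1000 UMIs, a Col4a1 UMI was seen in 3 of 47 uninjured and 17 of 35 injured cells, against 25 of 551 and 51 of 998 EpA cells. The share of a cell's UMIs in the whole list had a median of 0.38% in the uninjured and 0.84% in the injured cells. Igfbp7, a matrix-bound binding protein of vessels, was chosen after its values were seen, since it belongs to no list, and stood at 952 and 3899 CPM, 4.09-fold higher (3.69 to 4.55).

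**Figure D2:**
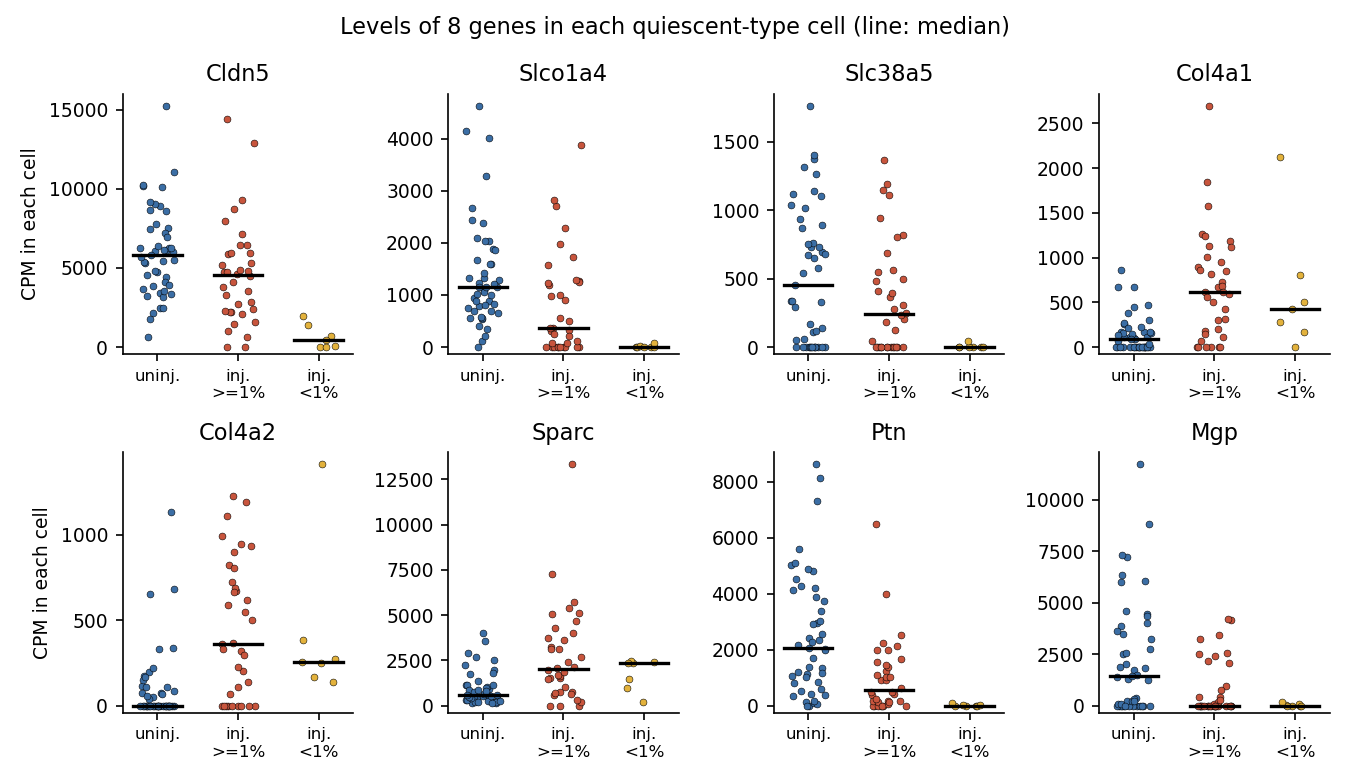
CPM of 8 genes in each cell, for the 47 uninjured cells (blue), the 36 injured cells with at least 1% endothelial UMIs (red) and the 7 injured cells below 1% (yellow), with a line at each median. Col4a1, Col4a2 and Sparc have higher medians in the red than in the blue points, Ptn and Mgp lower ones, and the yellow points lie near 0 for Slco1a4, Slc38a5, Ptn and Mgp.

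Genes known from sprouting tip cells were higher in the injured cells, but part of this rested on 1 cell. Of 21 measured genes of the tip cell and angiogenic list 15 were called higher and 0 lower, against 6.37% and 5.23% over all genes. The median log2 ratio was 2.14. Of the 35 list genes 9 also stand in the basement membrane list, and among the 13 measured genes that do not, 9 were higher. The deepest injured cell had 44381 UMIs, 12.4% of the UMIs of the 36. Without it 8 of 15 measured genes were higher, against 5.61% over all genes, and the median was 1.41. Of these 15 genes 13 passed the level and UMI limits of a call. That cell held 60 of the 75 UMIs of Apln, the ligand of the apelin receptor, and 38 of 55 of Pgf, a VEGF family ligand. It also held 40 of 43 UMIs of Angpt2, the Tie2 ligand of remodelling vessels, and 17 of 27 of Adm, which encodes adrenomedullin. It had 0 UMIs of Slco1a4, Slco1c1 and Slc38a5 and 2 of Ly6c1, while Cldn5 stood at 2749 CPM in it. In the other 35 injured cells Apln stood at 48.0 CPM in 4 cells, and no uninjured member had an Apln, Pgf or Adm UMI. None of these 3 genes was called without that cell, and all 17 Pgf UMIs outside it lay in 1 other cell. Some shallow cells among the other 35 also had many UMIs of the list. Picked for this, cells of 3151, 3371, 4873 and 4901 UMIs held 40, 42, 79 and 40 of them, and 0 of Slco1a4. Whether such cells belong with the angiogenic-type cells, which a raw UMI limit sets apart, was not tested. The per-cell share of the whole list had a median of 0.20% in the uninjured and 0.66% in the injured cells.

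Several genes with high ratios had a UMI in 14 or fewer of the 36 injured cells. S100a6, a calcium-binding protein, had 7 UMIs in 4 uninjured cells and 184 UMIs in 13 injured cells, 13.7 and 516 CPM, 37.5-fold higher (17.8 to 94.6). EpA cells also differed in S100a6, at 57.4 CPM in the uninjured and 1652 CPM in the injured library. At 1000 UMIs S100a6 was seen in 9 of 35 injured members and 454 of 998 injured EpA cells. Free RNA from EpA cells was not tested as a part of this difference. Lgals1, which encodes galectin 1, stood at 5.89 and 241 CPM, and 69.8% of its injured UMIs came from the deepest cell. Its log2 ratio was 5.14 with and 3.63 without that cell. Tubb6, a beta-tubulin, stood at 5.89 and 171 CPM, with a log2 ratio of 4.65 with and 3.92 without it. Mcam, an adhesion molecule of vessels, stood at 3.93 and 115 CPM in 2 and 14 cells, and its log2 ratio of 4.57 became 3.51 without that cell, where it was no longer called. Of the 28 measured cytoskeleton genes 9 were called higher and 1 lower, against 6.37% and 5.23% over all genes, with a median of 0.70. The median share of a cell's UMIs in this list was 2.75% in the uninjured and 2.76% in the injured cells.

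Other genes with large ratios were Adamts9, a secreted protease, at 9.82 and 137 CPM (14.0-fold, 5.60 to 45.0), and Gmppb, an enzyme of mannose activation, at 7.86 and 64.5 CPM. Litaf stood at 25.5 and 174 CPM. Ccnd1, which encodes cyclin D1, stood at 25.5 and 171 CPM, with a log2 ratio of 2.70, and 2.10 without the deepest cell. Plaur, the urokinase receptor, stood at 15.7 and 101 CPM in 6 and 14 cells. Trp53i11 was 33.4 and 219 CPM, with 64.1% of its injured UMIs in the deepest cell. The log2 ratio of Trp53i11 was 2.68 with and 1.41 without that cell.

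Several transcripts of secreted proteins were lower in the injured cells. Ptn encodes pleiotrophin, a heparin-binding growth factor. It stood at 2912 CPM (2766 to 3064) in the uninjured and 695 CPM (611 to 787) in the injured cells, 4.19-fold lower (3.66 to 4.81). Its per-cell median was 2072 CPM in the uninjured and 567 CPM in the injured cells, and 45 of 47 and 29 of 36 cells had a UMI. Mgp, the matrix Gla protein that inhibits calcification and BMP signalling, stood at 2384 and 900 CPM, 2.65-fold lower (2.34 to 3.01), with a UMI in 34 of 47 and 16 of 36 cells. Apoe, which encodes an apolipoprotein of glia and macrophages, stood at 2582 and 580 CPM, 4.45-fold lower (3.84 to 5.18). Microglia-rule cells held Apoe at 5208 CPM in the uninjured and 14977 CPM in the injured library, and EpA cells at 1043 and 626 CPM. The part of free Apoe RNA in the members was not tested.

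Lower levels were also found in low-abundance genes. Bmp2, a BMP ligand, had 30 UMIs in 12 uninjured cells and 1 UMI in the injured cells, 58.9 and 2.80 CPM (21.0-fold lower, 3.49 to 857). Ecm2, a matrix protein, went from 86.4 to 8.41 CPM in 23 and 3 cells. Gpm6a stood at 58.9 and 8.41 CPM, Prss23, a serine protease, at 210 and 47.7 CPM, and the transcription factor gene Tshz1 at 112 and 19.6 CPM. Usp47, a deubiquitinase gene, Khk, ketohexokinase, Mylk, myosin light chain kinase, and Gadd45g, a stress response gene, were named by the same rule, with log2 ratios of −2.89, −2.23, −2.57 and −2.12. Mt3, a metallothionein, was called lower as well, at 192 and 14.0 CPM, but 82.7% of its uninjured UMIs lay in 1 uninjured cell with 281 ependymal UMIs. Over all 43 injured cells Mt3 was higher instead, at 945 CPM. The same uninjured cell held 99 of the 109 uninjured UMIs of Nnat, which stood at 214 and 8.41 CPM.

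**Figure D3:**
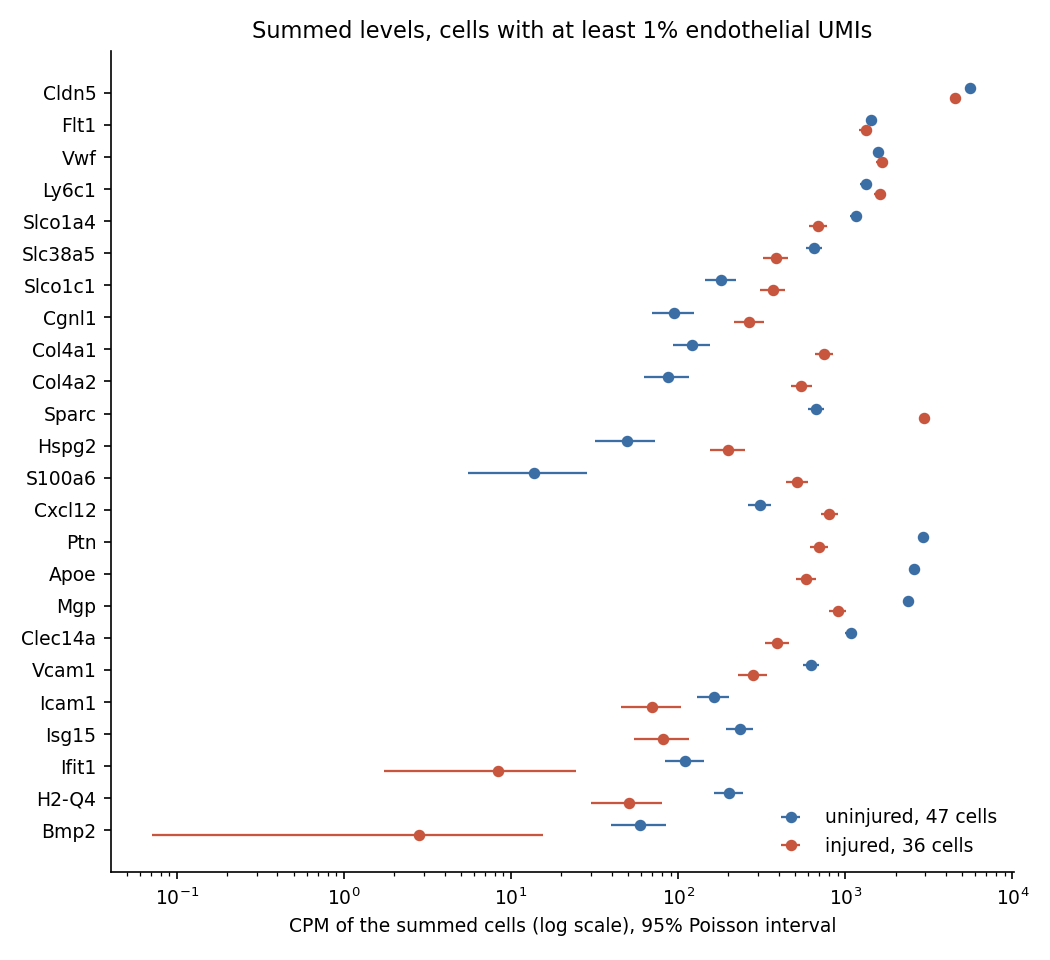
Summed level of 24 genes on a log axis in CPM, with 95% Poisson intervals, for the 47 uninjured cells (blue) and the 36 injured cells with at least 1% endothelial UMIs (red). Red lies to the right of blue for Col4a1, Col4a2, Sparc, Hspg2 and S100a6, to the left for Ptn, Apoe, Mgp and the genes below them, and close to blue for Cldn5, Flt1 and Vwf.

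Of 27 measured barrier transporters 3 were called higher and 1 lower, against 6.37% higher and 5.23% lower over all genes, with a median log2 ratio of 0.066. Slco1c1, the thyroxine carrier, stood at 181 and 370 CPM (2.05-fold higher, 1.56 to 2.70), Mfsd2a, a lysolipid carrier that restrains transcytosis, at 35.3 and 81.3 CPM, and Tfrc, the transferrin receptor, at 55.0 and 123 CPM. Slc39a8, a metal ion carrier, was the 1 called lower, at 153 and 67.3 CPM, and was not called without the deepest injured cell. Slco1a4 stood at 1157 and 690 CPM and Slc38a5 at 652 and 384 CPM, both below the 2-fold limit, with log2 ratios of −0.74 and −0.76. Per cell, the median of Slco1a4 was 1151 CPM in the uninjured and 362 CPM in the injured cells, and 46 of 47 and 26 of 36 cells had a UMI. Abcb1a, the efflux pump P-glycoprotein, stood at 833 and 465 CPM, and Slc2a1, the glucose carrier, at 1002 and 1093 CPM. Over all 43 injured cells 11 of 26 transporters were lower and 0 higher, against 13.4% and 12.8% over all genes, with a median of −0.74. The 36 cells were chosen by their endothelial share, and that choice left out injured cells only. The transporter median depends on this choice, as do those of the next 2 lists.

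Of 14 measured junction genes 1 was called higher and 0 lower, against 6.37% and 5.23% over all genes, with a median of 0.15. The 1 gene called with the 36 cells was Cgnl1, which encodes paracingulin of the junction plaque, at 94.3 and 266 CPM (2.83-fold higher, 1.98 to 4.09). Cdh5, the endothelial cadherin, stood at 328 and 527 CPM and Tjp1, a scaffold of tight junctions, at 528 and 328 CPM. Of 17 measured Wnt and beta-catenin target genes 15 passed the level and UMI limits of a call. Of these 0 were called in either direction, beside the same shares over all genes, and the list median was −0.32. Lef1, a transcription factor of the pathway, stood at 375 and 252 CPM. Tnfrsf19, the gene at the driver locus and itself on this list, stood at 124 CPM (63 UMIs in 27 cells) in the uninjured and 72.9 CPM (26 UMIs in 18 cells) in the injured cells, and at 16.6 and 9.25 CPM in EpA cells. The reporter transcript tdTomatoWRPE was found in 46 of 47 and 35 of 36 cells, at 1375 and 2694 CPM, a ratio of 1.96 (1.78 to 2.16). The levels of tdTomatoWRPE in microglia-rule cells of the same libraries were 39.6 and 125 CPM.

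Some venous and inflammatory adhesion genes were lower in the injured cells. Of 20 measured venous genes 2 were called higher, 9 lower and 9 neither, against 5.23% lower over all genes, with a median of −0.72. Over all 43 injured cells 1 of 19 was higher and 16 lower, against 12.8% and 13.4% over all genes. Vcam1 and Icam1 are the ligands for leukocyte integrins. Vcam1 stood at 626 and 280 CPM (2.23-fold lower, 1.78 to 2.83) with a UMI in 30 of 47 and 12 of 36 cells, and Icam1 at 163 and 70.1 CPM (2.33-fold lower, 1.47 to 3.80). Lcn2, an iron-sequestering acute phase protein, stood at 691 and 278 CPM, and 39.5% of its uninjured UMIs came from 1 cell. Il1r1, the receptor of interleukin 1, stood at 202 and 67.3 CPM, Ch25h, cholesterol 25-hydroxylase, at 277 and 115 CPM, and Ephx1 at 60.9 and 22.4 CPM. The 2 higher genes were Plaur, above, and Selp, P-selectin, at 13.7 and 78.5 CPM in 5 and 9 cells. Without the deepest injured cell the venous list had 6 genes lower, and Vcam1, at a log2 ratio of −0.96, was no longer called.

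The acute inflammation list had 5 of 16 measured genes lower and 0 higher, against 5.23% and 6.37% over all genes, with a median of −0.79. Cebpb, a transcription factor of inflammation, stood at 102 and 39.2 CPM, and Ptgs2, cyclooxygenase 2, at 442 and 233 CPM, below the limit. In the list of leukocyte adhesion genes and chemokines Cxcl12 was higher, at 308 and 802 CPM (2.60-fold, 2.13 to 3.18), with a UMI in 31 of 47 and 20 of 36 cells. The highest injured cell had 12082 CPM of Cxcl12, and 25.5% of the injured UMIs came from 1 cell. In that list 2 of 14 measured genes were higher and 4 lower, beside the same shares over all genes.

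Some interferon-stimulated genes were lower. Of 21 measured genes of the interferon list 18 passed the level and UMI limits of a call. Of these 6 were called lower and 0 higher, against 5.23% lower over all genes. The median of the 21 genes was −0.54. Over all 43 injured cells 14 of 18 were lower, against 13.4% over all genes, with a median of −1.37. The per-cell share of the whole list had a median of 0.97% in both libraries, and with the 36 cells thinned to 1000 UMIs the list median was 0.012. Ifit1, which binds foreign RNA caps, had 56 UMIs in 11 uninjured cells, 46.4% of them in 1 cell, and 3 UMIs in the injured cells, 110 and 8.41 CPM (13.1-fold lower, 4.25 to 65.3). Isg15, a ubiquitin-like modifier, stood at 234 and 81.3 CPM (2.87-fold lower, 1.90 to 4.48) with a UMI in 25 of 47 and 16 of 36 cells. Ifit3 stood at 86.4 and 30.8 CPM, and Iigp1, an immunity-related GTPase, at 155 and 36.4 CPM (4.26-fold lower, 2.35 to 8.35) in 27 and 7 cells. Gbp5, a guanylate-binding protein outside the list, stood at 80.5 and 16.8 CPM.

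A promoter element, which the counts did not use, was searched in these genes. The interferon-stimulated response element is the site of the factor complex that interferon receptors switch on. A search of the 250 bases before each RefSeq start (GRCm38.p6) on both strands for TTTC followed, after any 2 bases, by another TTTC found it in 11 of 20 interferon list genes with a promoter entry (55%), against 936 of 27025 genes (3.46%). It was found in 2 of 13 class I presentation genes and in 0 of 17 basement membrane genes. The interferon list consists of known interferon-stimulated genes, so a high share was likely beforehand and is no result about the injury. Of the 11 list genes with a match 4 were called lower. Iigp1 had no promoter entry and was not searched. The promoters of Isg15, Ifit1 and Ifit3, 3 of the 4 list genes that were called lower and held a match (Igtp is the other), were chosen after these values were seen and are shown from 250 to 51 bases before the start, 5′ to 3′ on the strand of the gene, with the matches in capitals.
Isg15, chr4:156200869-156201068, strand minus: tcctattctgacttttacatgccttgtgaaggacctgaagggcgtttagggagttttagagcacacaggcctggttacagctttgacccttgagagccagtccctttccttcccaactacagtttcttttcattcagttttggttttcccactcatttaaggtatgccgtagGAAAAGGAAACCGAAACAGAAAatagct
Ifit1, chr19:34640639-34640838, strand plus: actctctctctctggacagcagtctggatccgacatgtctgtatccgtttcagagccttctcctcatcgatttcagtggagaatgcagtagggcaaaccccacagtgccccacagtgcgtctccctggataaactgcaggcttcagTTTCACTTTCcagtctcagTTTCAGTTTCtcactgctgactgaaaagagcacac
Ifit3, chr19:34583279-34583478, strand plus: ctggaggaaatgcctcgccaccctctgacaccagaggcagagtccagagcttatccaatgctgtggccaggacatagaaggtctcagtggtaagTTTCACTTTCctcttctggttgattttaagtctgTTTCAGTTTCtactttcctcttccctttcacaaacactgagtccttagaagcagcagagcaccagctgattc
Isg15 held 3 overlapping matches that begin 78, 72 and 66 bases before the start. Ifit1 held 2, beginning 104 and 85 bases before it, and Ifit3 held 2, beginning 156 and 122 bases before it. A match is a run of letters and no measurement of binding. The levels of these 3 genes are those given above, lower in the injured cells for each, although Isg15 had a log2 ratio of 0.26 with the cells thinned to 1000 UMIs.

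Of 14 measured genes of class I antigen presentation 5 were called lower, 9 were not called and 0 were higher, with a median of −0.78, against 5.23% lower over all genes. Without the deepest injured cell 4 were lower. The list summed to 7034 and 5043 CPM. Over all 43 injured cells 11 of 15 were lower and 1 higher, against 13.4% and 12.8% over all genes. H2-Q4, a class I heavy chain gene, stood at 200 and 50.5 CPM (3.97-fold lower, 2.39 to 6.97) with a UMI in 31 of 47 and 14 of 36 cells. The gene belongs to a family of near-identical copies, and how reads were split among them is not given in the sources used here. Psmb9, a subunit of the immunoproteasome, stood at 165 and 72.9 CPM, Tap1, the peptide transporter, at 53.0 and 22.4 CPM, and Tapbp, tapasin, at 167 and 72.9 CPM. The per-cell share of the list had a median of 0.68% in the uninjured and 0.43% in the injured cells.

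**Figure D4:**
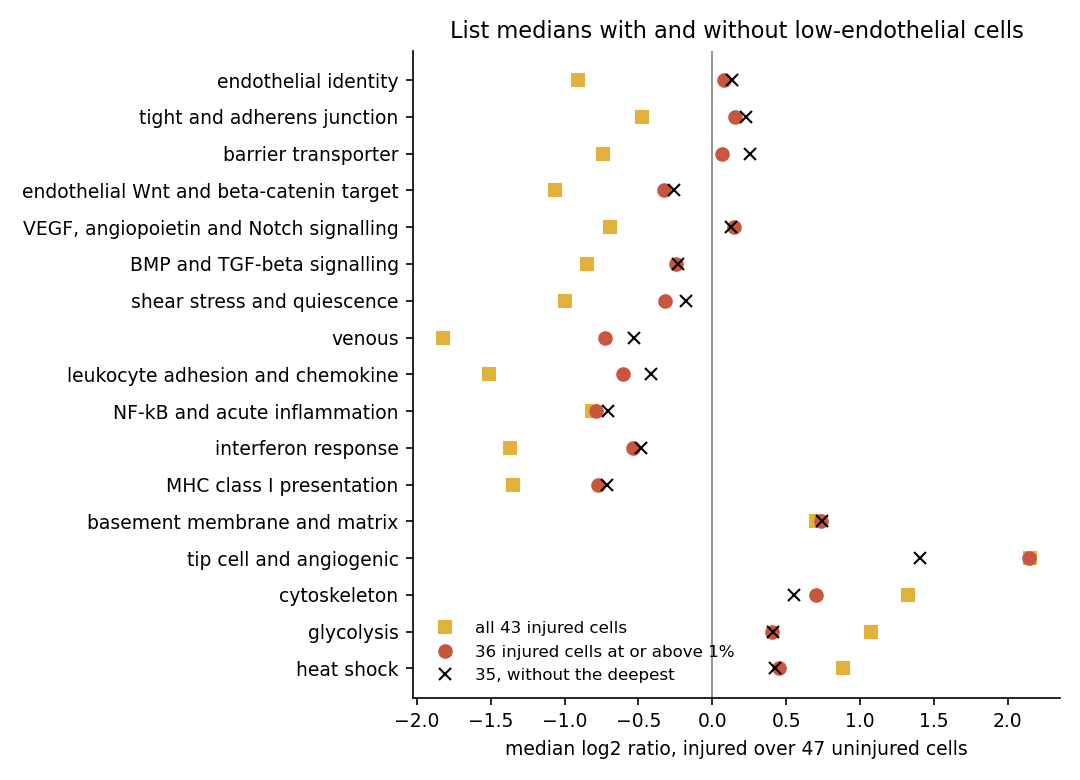
Median log2 ratio of injured over uninjured cells for 17 gene lists, with all 43 injured cells (squares), the 36 with at least 1% endothelial UMIs (circles) and those without the deepest (crosses). Squares and circles lie on different sides of 0 for endothelial identity, junctions, transporters and VEGF signalling, and on the same side for basement membrane (0.70 and 0.74), venous and class I presentation genes.

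The other signalling groups had calls in both directions, beside 6.37% higher and 5.23% lower over all genes. Of 18 measured BMP and TGF-beta genes 2 were called higher and 2 lower, with a median of −0.25. Smad1, which relays BMP signals, stood at 62.8 and 149 CPM, and Bambi and Id2 at 136 and 56.1 and at 84.4 and 36.4 CPM. The BMP ligand gene Bmp2 was also called lower, as given above. Of 16 VEGF, angiopoietin and Notch genes 2 were higher, Pgf and Angpt2, which rested on the deepest cell as given above. Of 18 genes of flow and quiescence 1 was higher and 2 lower. Cdkn1a, a cell cycle inhibitor, stood at 66.8 and 157 CPM, Thbd, thrombomodulin, at 263 and 129 CPM, and Foxo1 at 192 and 89.7 CPM. Without the deepest cell the log2 ratios of Cdkn1a, Thbd, Smad1 and Id2 were 0.90, −0.83, 0.99 and −0.98, just short of the limit.

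Single genes of the stress and metabolic lists were called, beside 6.37% higher and 5.23% lower over all genes. Hspa1a and Hspa1b, inducible heat shock proteins with near-identical coding sequence, stood at 88.4 and 300 CPM and at 27.5 and 107 CPM, and no other of the 13 heat shock genes was called. Among immediate early genes Atf3 was higher, at 53.0 and 297 CPM, with 48.1% of its injured UMIs in 1 cell, and Zfp36, an mRNA decay factor, was lower at 638 and 196 CPM. In the list as a whole 2 of 19 were higher and 4 lower. Of 14 measured glycolysis genes 2 were higher and 1 lower. The 2 were Gapdh, at 450 and 998 CPM, and Pkm, at 259 and 586 CPM, and the lower one was Ldhb, at 72.7 and 19.6 CPM. Without the deepest cell the log2 ratio of Gapdh was 0.86. Scd2, a fatty acid desaturase, stood at 53.0 and 115 CPM.

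Transcripts of dividing cells were seen in few members. Top2a, a topoisomerase of dividing cells, had 0 UMIs in the 47 uninjured cells and 21 UMIs in 4 injured cells, 52.4% of them in 1 cell. Taking 3 UMIs as the most that a count of 0 allows, the level was at least 9.99-fold higher in the injured cells. Cenpa had 25 injured UMIs in 5 cells, 80% of them in 1 cell, against 7 UMIs in 7 uninjured cells. Hmgb2, a chromatin protein that resting cells also make, stood at 151 and 320 CPM. Of 7 measured G2 and mitosis genes 6 passed the level and UMI limits of a call. Of these 3 were called higher, against 6.37% over all genes. Of the 3 measured S phase genes 0 passed those limits, so none could be called.

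The quiescent-type cells were set beside the 62 angiogenic-type cells of the injured library, which the rule separated by the 5 angiogenic genes. Groups chosen in this way have no test, and the values are a description. Slco1a4 stood at 690 CPM in the 36 quiescent-type and 11.3 CPM in the angiogenic-type cells, 60.9-fold lower (44.2 to 85.7). Slco1c1 had 132 UMIs in the quiescent-type cells and 1 UMI in the angiogenic-type cells, 370 and 0.25 CPM. Abcb1a stood at 465 and 52.1 CPM, Slc38a5 at 384 and 31.4 CPM, Lef1 at 252 and 26.4 CPM, Tnfrsf19 at 72.9 and 5.28 CPM, and Lcn2 at 278 and 6.79 CPM. Ptn was 695 and 69.4 CPM. General endothelial genes differed as well, with the identity list at 28229 and 12557 CPM and Cldn5 at 4524 and 567 CPM. Flt1 stood at 1329 and 378 CPM and Vwf at 1657 and 281 CPM. Cdh5 stood at 527 and 589 CPM, and Pecam1, a rule gene, at 594 and 511 CPM. The limit of 1% was set on the identity list and for the quiescent-type cells only, so part of the gap in this list is built in. Over all 43 injured quiescent-type cells the identity list summed to 15018 CPM, against the same 12557 CPM in the angiogenic-type cells. The median share of a cell's UMIs in this list was 2.67% in those 43 cells and 1.27% in the angiogenic-type cells.

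In Col4a1, Col4a2 and Sparc the injured quiescent-type cells were above the uninjured cells, as were the angiogenic-type cells. Col4a1 was 122, 746 and 1388 CPM in uninjured quiescent-type, injured quiescent-type and angiogenic-type cells, and Col4a2 was 86.4, 547 and 651 CPM. Sparc was 670, 2963 and 2297 CPM, so that the quiescent-type cells of the injured cord had the highest level. The list sums were 3765, 8822 and 9565 CPM. The angiogenic-type cells were not limited to at least 1% endothelial UMIs, and their fibroblast list summed to 674 CPM against 5.61 CPM in the injured quiescent-type cells, with Dcn at 391 and 0 CPM. The part of such transcripts in the matrix sums was not tested. The tip cell list summed to 2205, 7695 and 9457 CPM. Transporter sums were 8607, 7703 and 1121 CPM. The angiogenic-type cells were deeper, at a median of 51949.5 against 6530 UMIs, and 13 of the 62 had less than 1% endothelial UMIs. These are cells of 1 injured library, and the order of the 3 groups has no replicate check.

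**Figure D5:**
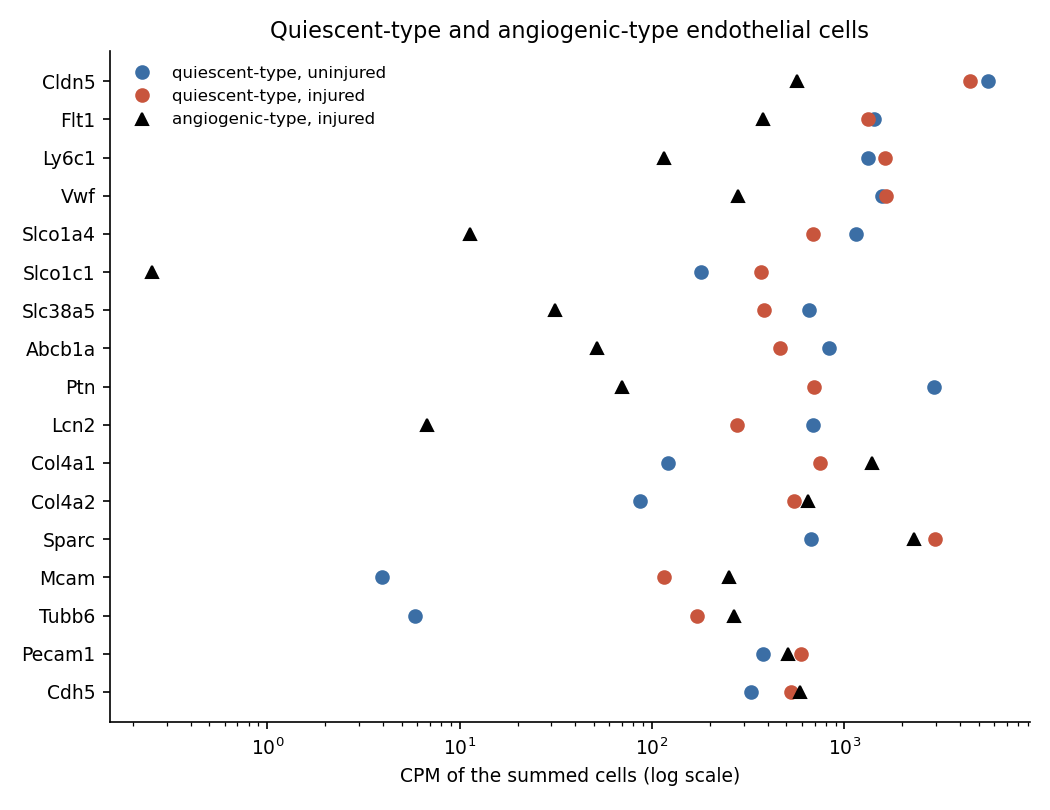
Summed level of 17 genes on a log axis in CPM for uninjured (blue) and injured (red) quiescent-type cells with at least 1% endothelial UMIs and for injured angiogenic-type cells (triangles). The triangles lie far to the left for Slco1a4, Slco1c1, Slc38a5 and Lcn2, while red points and triangles lie to the right of blue for Col4a1, Col4a2, Sparc, Mcam and Tubb6.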

How the data were processed

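Single-cell RNA was sequenced from 1 uninjured and 1 injured library. The values are UMI counts per gene and cell as deposited by the authors, made with Cell Ranger 3.0.1, Seurat (version not given in the sources used here) and mm10, per the submitters' processing notes. The tables list genes seen in at least 3 cells, and an unlisted gene was taken as 0. Counts of each member were read from the library tables, and membership from the authors' kept and EpA tables. Members, gene lists and comparisons were chosen with earlier results of these data known, so none is independent evidence, and the limit of 1% endothelial UMIs was chosen after these data were seen.

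UMIs were summed over cells, scaled to CPM, and log2 ratios used a prior of 0.5 counts. Intervals are 95% exact Poisson for levels, exact conditional binomial for ratios and Clopper-Pearson for shares, and cover counting error only. A list gene was measured at a mean of 25 CPM, and some measured genes still missed the 50 CPM or 20 UMI limit of a call. Named genes were the 12 highest and 12 lowest ratios among called genes with a UMI in at least 25% of members of the higher library, without predicted, clone-named, mitochondrial, ribosomal protein and haemoglobin genes. To these came up to 4 genes per list, and the rule, marker and zonation genes, Tnfrsf19 and tdTomatoWRPE. Other genes in the text were chosen after their values were seen. No doublet caller was run, and cells of high depth or with other markers are described. The deposited counts were taken without correction for free RNA. Calls were tested on simulated counts for all members: 50 of 50 genes were recovered at each of 4-fold and 3-fold higher and lower, and 20 of 3112 unchanged genes were called, over 3312 genes. The simulated counts were Poisson counts without differences between cells, and only genes of at least 100 CPM were changed. They therefore give no rate of false calls for the 36 cells or for genes held by few cells. Python 3.11.15, numpy 2.4.6, scipy 1.17.1, pandas 2.3.3, matplotlib 3.10.9, R 4.3.3, edgeR 4.0.16 and DESeq2 1.42.0 (the last 2 for scaling factors only) were used. Alternatives were other scalings, thinning, floors and limits of the cell rule. Promoters are RefSeq sequences on GRCm38.p6, and gene positions are from the annotation of GRCm38.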

Additional observations from a re-analysis of the deposited data

Results flagged for a closer look

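Ptn and Hspa1b differed in opposite directions between quiescent-type and EpA cells of the same libraries. The log2 ratio of injured over uninjured for Ptn was −2.06 in the quiescent-type cells with at least 1% endothelial UMIs and 4.95 in EpA cells, whose level was 2.34 CPM in the uninjured and 74.4 CPM in the injured library. For Hspa1b it was 1.92 in the quiescent-type and −1.52 in EpA cells, whose levels were 163 and 57.0 CPM. With 1 library per condition the difference between the cell types was not tested.

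Barcodes that the authors did not keep also met the rule, 3 of the uninjured library and 28 of the injured one. Their median depth was 1640 and 4055 UMIs, their median mitochondrial share 0.0743% and 0.134%, and their median endothelial share 3.60% and 1.80%. They are outside the comparisons of the report.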

How the results depend on the processing

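No paired analysis was possible because each condition has 1 library. The counts of genes higher and lower, 473 and 494 over all members, became 1541 and 115 as UMIs per cell without scaling, 2793 and 2163 with no floor, 260 and 269 at a floor of 100 CPM, and 38 and 39 with cells thinned to 1000 UMIs. They were 288 and 237 with fewer than 5 angiogenic UMIs. The lower count was 312 with every cell weighted alike, 308 with at least 10 endothelial UMIs and 311 with fewer than 10 pericyte UMIs. Alternatives chosen after seeing the data gave 230 and 189 with at least 1% endothelial UMIs and 173 and 176 with at most 40000 UMIs. Within the cells of at least 1%, TMM factors gave 205 and 207, thinning 38 and 38, leaving out the deepest injured cell 200 and 170, and leaving out the ependymal-rich uninjured cell 243 and 190, and equal weights gave 299 lower. The injured share of quiescent-type cells became 98.0% on thinning with the UMI limits of the rule kept unchanged.

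Signs turned as follows against the values over all members, for genes called there and for list medians of at least 2-fold in either setting. Vwf had a log2 ratio of 0.20 with equal weights, 0.25 thinned, 0.070 with at least 1%, 0.10 with at most 40000 UMIs, and, within the cells of at least 1%, 0.44 with equal weights, 0.40 thinned, 0.031 with TMM factors, 0.23 without the deepest and 0.014 without the ependymal-rich cell. Mt3 was −3.65 with at least 1%, and within those cells −1.56, −0.71, −3.69, −3.46 and −1.26 in the same order. Thinning over all members gave Gmppb −1.42, Gbp5 0.16, Foxo1 0.65, Bambi 0.16 and Slc39a8 0.69. Thinning within the cells of at least 1% gave Kdr 0.020, Isg15 0.26, Tnfrsf19 1.08 and the interferon list a median of 0.012. Tnfrsf19 was 0.034 with equal weights there, and Flt1 0.032 without the deepest cell. The S phase median was −0.28 with at least 1%, −0.32 with TMM factors and −0.091 without the deepest. The cause was not tested. Of the values of single genes 1756 stayed called in the same direction or stayed uncalled, 328 lost the call and 81 gained it. Turns of sign between uncalled values count among the 1756. Of list medians 423 stayed on the same side of the 2-fold limit, turns of sign below it included. The medians of endothelial identity, junction, transporter and VEGF genes turned in this way with the cells of at least 1%. Depth limits low genes: with 1000 UMIs per cell, 626 genes passed the floor.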

Other observations

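Beyond the comparisons, 3 injured members with at least 1% endothelial UMIs had as many angiogenic-rule UMIs per 10000 as some angiogenic-type cells, and they were shallow, with 6229, 3151 and 2112 UMIs. The deepest of the 36 cells held all 22 UMIs of Meox1, a homeobox gene of endothelium. In the uninjured library 1 member of 35636 UMIs had 281 of the 1389 UMIs of the ependymal list, 21 of 25 of Ccdc153 and 47 of 100 of Clu. Caveola and transcytosis genes had 1 of 9 measured genes higher and 0 lower, and arterial genes 0 of 14 higher and 2 lower, Mgp and Clu. The shares over all genes were 6.37% higher and 5.23% lower.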
